A study of Mus musculus with 12 samples.

Results

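In all, 12 polyA RNA libraries of mouse E14 embryonic stem cells were divided by the replicate number in their titles, and the 6 libraries of replicates 1 and 2 were compared with the 6 of replicates 3 and 4. These are all 12 libraries of the series, with 2 libraries in each replicate set for each of 3 guide groups. The split was chosen by measured values, since the libraries' own expression separated in this way. Differences between the replicate sets are therefore described with their fitted size, standard error and values per library, and no p-value is attached to them. The labels do not say what sets replicates 1 and 2 apart from replicates 3 and 4, nor whether they came from separate cultures, so the p-values given further on cover only variation among these libraries, which may be technical.

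Every group carried the dCas_Alkbh5 fusion in an otherwise wild-type background, a catalytically dead Cas protein joined to Alkbh5, a demethylase that erases m6A on RNA. Cells grew on gelatin with serum and LIF, were transfected with a lenti-sgRNA-BSD plasmid, and were selected in blasticidin at 8 µg/mL for 3 days. All were then held in 200 nM INK128, an mTOR inhibitor, for 5 days, so the control cells were paused too and no unpaused cells were compared here. The guide was NT-gRNA (non-targeting, NT below), Mycn-gRNA2 or Mycn-gRNA3, with 4 libraries each. RNA came from 200000 cells per sample. The labels do not say whether the fusion line is 1 clone.

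Pausing by mTOR inhibition brings embryonic stem cells into a slow-growing state that keeps pluripotency. Several of the genes that differed between the replicate sets belong to well-studied programmes of cell shape and protein folding. Serum response factor binds CArG boxes and, with actin-sensing cofactors, drives genes of the contractile cytoskeleton. YAP, a coactivator controlled by cell contact and tension, acts through TEAD proteins on genes such as Cyr61 and Ctgf, which encode secreted matrix proteins. The unfolded protein response answers an excess of unfolded protein in the endoplasmic reticulum by raising chaperones such as Hspa5 through the transcription factors ATF6 and XBP1.

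The promoters of 3 genes show the binding motifs of these programmes in front of genes that were higher in replicates 3 and 4. The sequences are from RefSeq, on build GRCm38.p6, and give the 250 bases before the start of the gene on its own strand, in lower case, with the motif in capitals. Hspa5 lies on the plus strand at chr2:34771840-34772089, and the capitals mark an endoplasmic reticulum stress response element, CCAAT followed by 9 bases of any kind and CCACG, at 65 to 47 bases before the start. Cyr61, listed as Ccn1 in RefSeq, lies on the minus strand at chr3:145649986-145650235, and the capitals mark the TEAD core GGAATG, here on the opposite strand, at 103 to 98 bases before the start. Cnn2, which encodes the actin-binding protein calponin 2, lies on the plus strand at chr10:79988350-79988599, and the capitals mark a CArG box at 56 to 47 bases before the start.
Hspa5: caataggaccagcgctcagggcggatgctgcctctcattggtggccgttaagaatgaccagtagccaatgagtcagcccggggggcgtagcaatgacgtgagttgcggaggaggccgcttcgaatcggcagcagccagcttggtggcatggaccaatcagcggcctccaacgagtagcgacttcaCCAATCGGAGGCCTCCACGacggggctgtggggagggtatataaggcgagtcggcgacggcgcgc
Cyr61: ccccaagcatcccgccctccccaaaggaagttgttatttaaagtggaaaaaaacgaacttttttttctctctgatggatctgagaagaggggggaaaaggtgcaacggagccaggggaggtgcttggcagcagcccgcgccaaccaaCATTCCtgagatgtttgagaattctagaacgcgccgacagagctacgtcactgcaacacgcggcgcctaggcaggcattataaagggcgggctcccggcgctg
Cnn2: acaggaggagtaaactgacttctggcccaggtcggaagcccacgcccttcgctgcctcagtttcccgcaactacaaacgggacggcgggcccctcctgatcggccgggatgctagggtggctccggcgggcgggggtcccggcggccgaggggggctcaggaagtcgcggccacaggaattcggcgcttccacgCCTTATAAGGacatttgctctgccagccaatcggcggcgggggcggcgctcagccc

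A match is a description of the letters and not a binding site. Over all 32851 promoter windows in the table, each 300 bases long and searched on both strands, 1.63% held a CArG box, 14.7% the TEAD core and 0.119% the stress response element. Matches of different motifs overlapped in 6 windows. Of the 169 genes called higher in replicates 3 and 4 by the rule given below, 131 matched the table, with 174 windows. Among these windows, 2.3% held a CArG box, 13.2% the TEAD core and 0.575% the stress response element, which was in Hspa5 alone. Of the 31 genes called lower, 24 matched, with 28 windows, and 3.57% of the windows held a CArG box, 7.14% the TEAD core and 0% the stress response element. In the gene list for the unfolded protein response, 8 of 17 windows held the stress response element (47.1%). In the list of YAP and cytoskeleton targets, 10 of 25 held the TEAD core (40%) and 4 of 25 a CArG box (16%). The lists were drawn up by function, so these shares describe the lists and not the split. Among the list genes with these matches, only Hspa5, Cyr61 and Cnn2 were called along the split.

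Library sizes ran from 17248564 to 33819855 endogenous reads, and synthetic ERCC RNAs took 1.04% to 1.61% of reads. Levels are in CPM, read counts scaled to a common library size with TMM factors, that is, relative to the transcriptome of the library. Pou5f1, a defining factor of pluripotent cells, lay between 522 and 1070 CPM and Sox2 between 498 and 806 CPM in the 12 libraries. One library stood apart: Mycn-gRNA2 replicate 1 held 33.3% of the sum of squares within guide groups, against 2.51% to 12% in each of the others. It had the lowest Pou5f1 and Sox2 levels (522 and 498 CPM) and the highest level of Mki67, a proliferation marker, at 1090 CPM against 615 to 768 CPM elsewhere. Across genes, its deviation from its guide group correlated with GC content at r = -0.463, and that of Mycn-gRNA2 replicate 4 at r = 0.56. Y-linked genes summed to at most 0.176 CPM in NT libraries and to 31.5 to 81.7 CPM in libraries with a Mycn guide. The NT cells therefore differed from the guide cells in Y-linked RNA as well as in guide, in both replicate sets.

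The 2 replicate sets separated on the second axis of expression within guide groups, not on the first. Guide group means were removed from log2 CPM over the 10931 genes with a mean of at least 2. The first axis held 48% of the remaining variance and set Mycn-gRNA2 replicate 1 (score -0.823) against the rest. The second axis held 21.8%, and on it all 6 libraries of replicates 3 and 4 were positive (0.103 to 0.343). Of the 6 libraries of replicates 1 and 2, 5 were negative (-0.624 to -0.179), the exception being Mycn-gRNA2 replicate 1 at 0.151. A difference between replicate sets common to the guide groups accounted for 26% of the variance within guide groups, and 46.9% was between replicate sets when each guide group had its own difference. Compared only with libraries of other guide groups, 11 of 12 libraries correlated best with a library of their own set, and 9 with their own number. The split was chosen on such likeness, so these counts describe it and are no support for it.

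**Figure D1:**
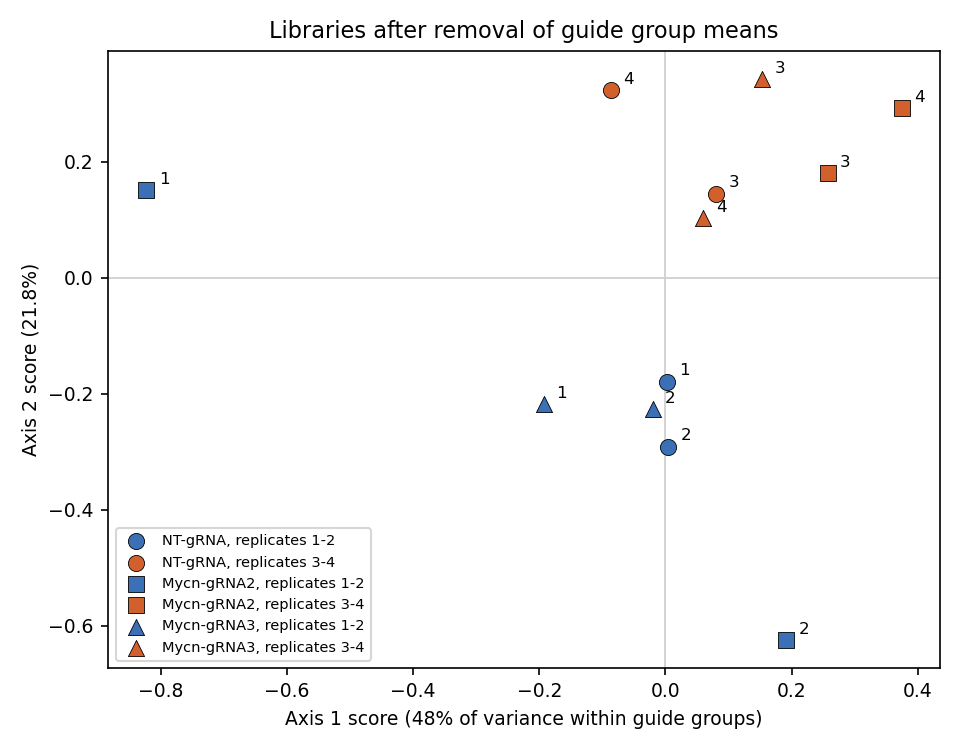
Scores of the 12 libraries on the first axis (horizontal) and the second axis (vertical) of log2 CPM after removal of guide group means. Symbols give the guide group, colours the replicate set, and the digit the replicate. The 6 libraries of replicates 3 and 4 lie above 0 on the second axis, and Mycn-gRNA2 replicate 1 lies at -0.823 on the first.

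Across the transcriptome, the difference between replicate sets was shared unevenly among guide groups, more between the 2 Mycn guides than with NT. Across the same 10931 genes, the differences of NT and Mycn-gRNA3 had a Pearson correlation of 0.303 (Spearman 0.095). Those of NT and Mycn-gRNA2 had 0.195 (Spearman -0.00769), or 0.415 (Spearman 0.274) without Mycn-gRNA2 replicate 1. The guides Mycn-gRNA2 and Mycn-gRNA3 were more alike, at 0.552 (Spearman 0.426), or 0.489 (Spearman 0.323) without that library. These pairs of differences share no library, the points are genes and not independent replicates, and no test was made. The median absolute difference per gene between set means was 0.0856 in NT, 0.159 in Mycn-gRNA2 and 0.0846 in Mycn-gRNA3 on the log2 scale. Between the 2 libraries of a guide group within a replicate set it was 0.0718 to 0.101, except in Mycn-gRNA2 replicates 1 and 2, where it was 0.281. A difference between means of 2 libraries carries less noise than one between single libraries, so these values are given side by side only.

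A gene was called along the split where both libraries of one replicate set lay above both of the other in each of the 3 guide groups, in the same direction, with a fitted fold of at least 1.5. By this rule, 169 of 14497 genes tested (1.17%) were higher in replicates 3 and 4 and 31 (0.214%) were lower. Without the fold minimum, 548 genes (3.78%) were ordered higher and 275 (1.9%) ordered lower in all guide groups. Nkx6-3 and Nr0b1, both at -0.59, and Nptx1, at 0.59, lay just inside the fold minimum. Just outside it lay Trp53i11, Fndc1 (both 0.58) and Pde3a (-0.58). Leaving out Mycn-gRNA2 replicate 1 gave 188 higher calls, 156 of them shared with the 169, and 43 lower calls. Leaving out a library loosens the ordering rule by construction, so such counts tend to rise. The count of lower calls moved more with single libraries: it was 48, 47 and 49 without NT replicate 1, 2 or 3. It was 15 with levels per ERCC read and 55 with no filter on low counts.

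The genes called higher were mostly of low to middle level. Their median log2 CPM was 2.486, that of the genes called lower 0.9179 and that of all genes tested 4.278. Only 99 of the 169 and 10 of the 31 had a mean log2 CPM of at least 2, the minimum for the largest changes named here. Below that minimum, Lor, which encodes the cornified envelope protein loricrin, had a difference of 4.07 and was singled out after its value was seen.

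**Figure D2:**
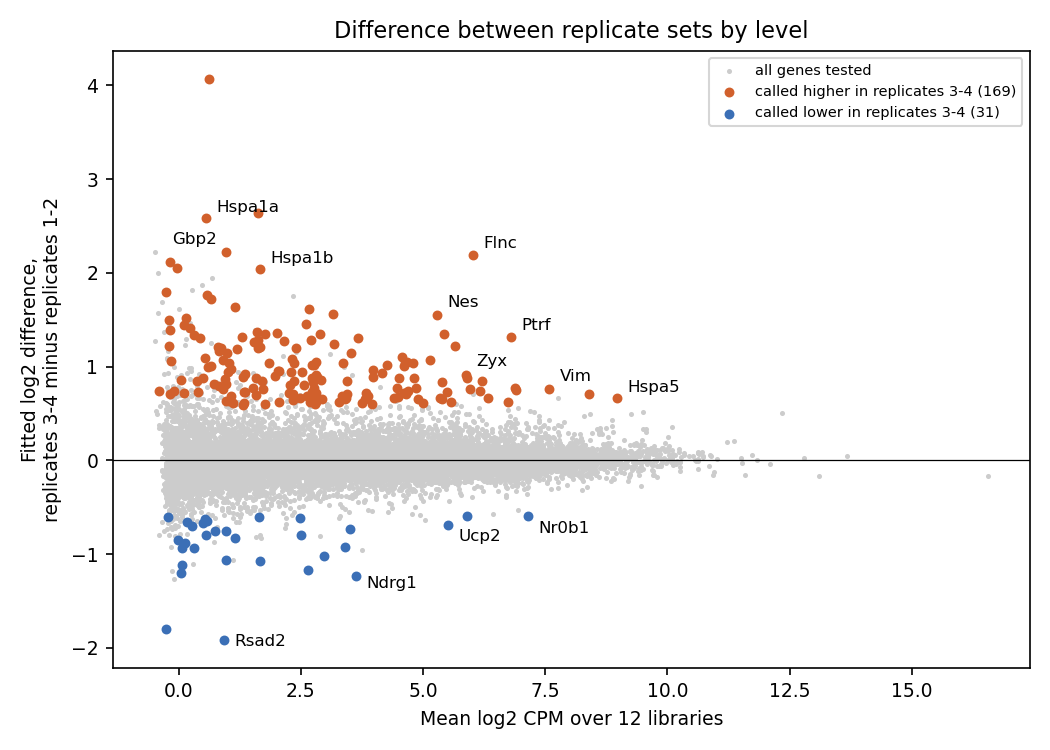
Fitted log2 difference, replicates 3 and 4 minus replicates 1 and 2 (vertical), against mean log2 CPM over 12 libraries (horizontal) for 14497 genes. Orange points are the 169 genes called higher and blue points the 31 called lower in replicates 3 and 4. Flnc stands apart among genes of high level, at 2.19.

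Among genes of at least the minimum level, Flnc had the largest difference on the higher side. Flnc, on chromosome 6 at positions 29433153 to 29461888 of mm10, encodes filamin C, which cross-links actin filaments. It had 23.2, 30.3 and 37.7 CPM as lowest, median and highest values in replicates 1 and 2, and 115.7, 131.8 and 186.3 CPM in replicates 3 and 4. The 2 ranges did not overlap, and the fitted log2 difference was 2.19 (SE 0.134). The difference was 1.89 in NT, 2.48 in Mycn-gRNA2 and 2.18 in Mycn-gRNA3. The rule for a call fixes the shared direction, so only the sizes are informative here. Nes, encoding the intermediate filament protein nestin of neural progenitors, had 14.5, 24.5 and 29.7 CPM against 57.7, 65.2 and 83.1 CPM, a log2 difference of 1.55 (SE 0.149). Ptrf, also known as Cavin1, coats caveolae at the cell membrane and had 40.7, 73.1 and 113 CPM against 138, 176 and 216 CPM, a difference of 1.32 (SE 0.156). All 3 genes were higher in every library of replicates 3 and 4 than in any library of replicates 1 and 2. The rule already requires this order within each guide group.

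The other 9 of the 12 largest differences on the higher side ran from 1.27 to 1.62. Cacna1h, a T-type calcium channel subunit, differed by 1.62 (SE 0.175) and Samd4, an RNA-binding protein that represses translation, by 1.56 (SE 0.107). Tmcc3 differed by 1.45 and Wnt6, a Wnt ligand, by 1.36. Pla2g7, a secreted phospholipase, and Gnao1, a G protein subunit, each differed by 1.35. Shisa3, which acts on Wnt and FGF receptors in the endoplasmic reticulum, differed by 1.28 over the 3 guide groups, but by 0.24 in NT against 1.67 in Mycn-gRNA2 and 1.60 in Mycn-gRNA3. In NT its values were 4.24 and 3.72 CPM in replicates 1 and 2 and 4.63 and 4.97 CPM in replicates 3 and 4, so the order there rested on a small gap.

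**Figure D3:**
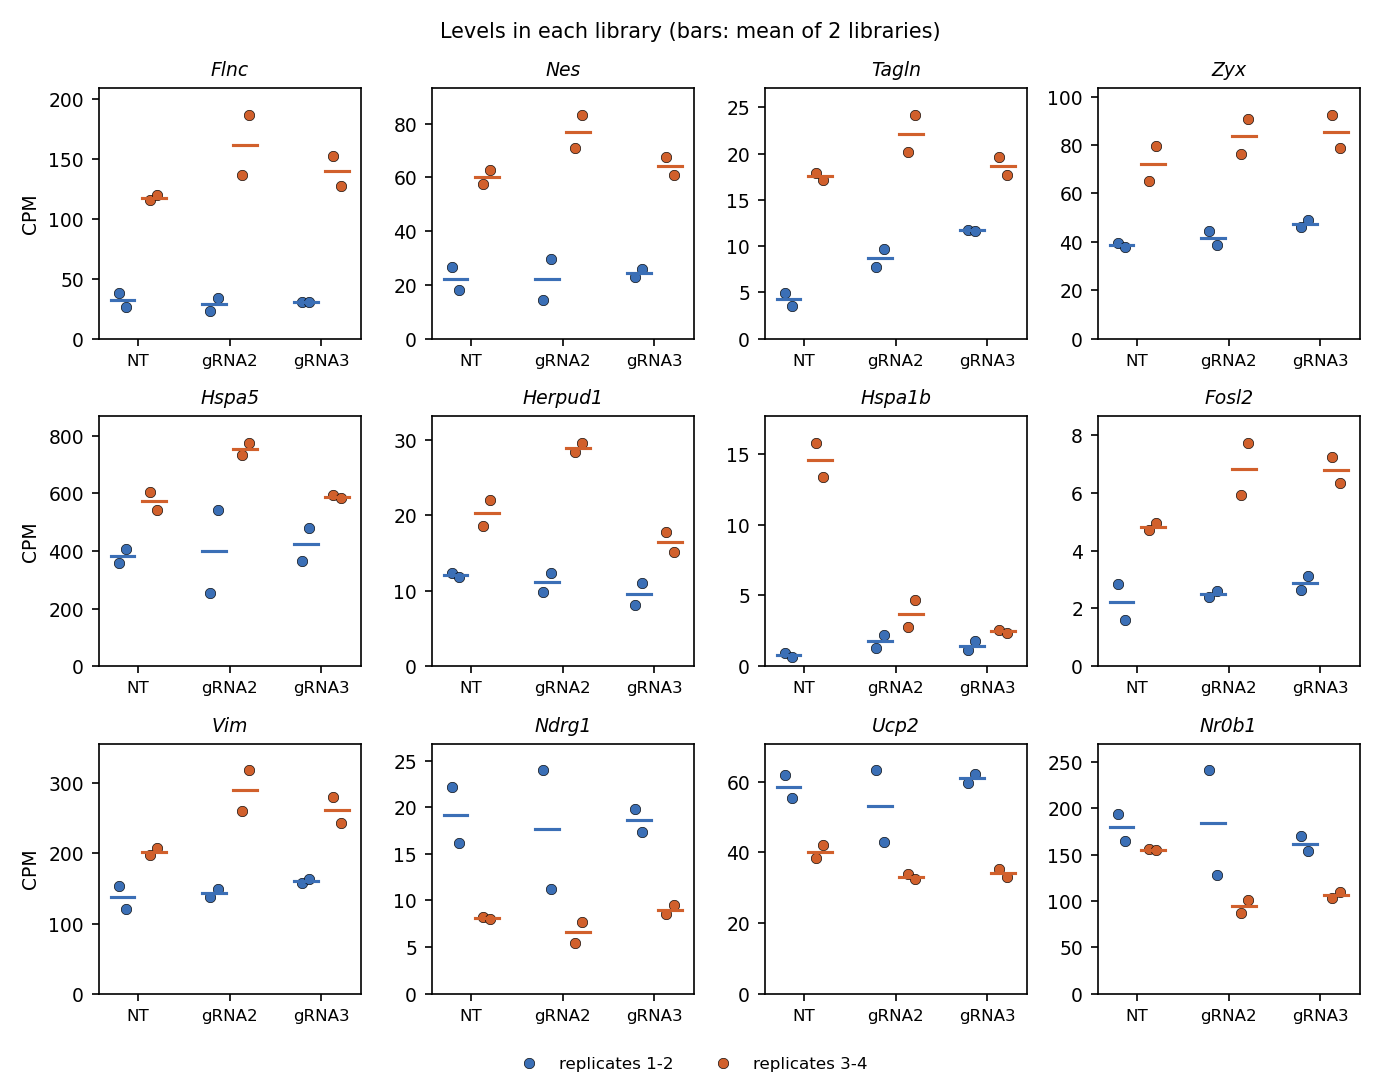
CPM (vertical, from 0) of 12 genes in each library, by guide group (horizontal), with replicates 1 and 2 in blue and replicates 3 and 4 in orange. Points are libraries and bars the mean of 2. Flnc, Nes and Zyx show no overlap between replicate sets over all guide groups, while the heat shock gene Hspa1b is highest in NT replicates 3 and 4.

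Of the list of YAP and cytoskeleton targets, 8 of 29 tested members were called higher and none lower, and 15 were ordered higher, against 1.17%, 0.214% and 3.78% of all genes. The list's median difference was 0.22 and that of all genes -0.0042. Their summed level was 6749 to 7984 CPM in replicates 1 and 2 and 8338 to 9241 CPM in replicates 3 and 4, with no overlap. Both counts, 8 called and 15 ordered, were the same without Mycn-gRNA2 replicate 1. Leaving out a library loosens the ordering rule, and over all genes 759 were then ordered higher, against 548 with every library. Zyx, encoding zyxin of focal adhesions, had 38.0 to 48.8 CPM in replicates 1 and 2 (median 42.1) and 64.9 to 92.2 CPM in replicates 3 and 4 (median 79.1). Its difference was 0.92 (SE 0.0728) and nearly even over guide groups, at 0.88, 0.99 and 0.84 in NT, Mycn-gRNA2 and Mycn-gRNA3.

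Tagln encodes a smooth muscle actin-binding protein, and its fitted difference was 1.31 (SE 0.177). It had 4.97 and 3.54 CPM in NT replicates 1 and 2 and 17.9 and 17.1 CPM in replicates 3 and 4. In Mycn-gRNA3 it had 11.8 and 11.7 CPM, then 19.6 and 17.6 CPM. Its interaction of guide group and replicate set did not pass (edgeR adjusted p = 0.281). Cnn2, whose promoter is printed above, had 43.1 to 75.7 CPM in replicates 1 and 2 and 82.8 to 109 CPM in replicates 3 and 4, a difference of 0.74 (SE 0.102). Anxa2, a membrane-binding annexin, differed by 0.78 (SE 0.174).

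Cyr61 had 31.6, 32.9 and 40.5 CPM as lowest, median and highest values in replicates 1 and 2 and 42.4, 56.0 and 80.0 CPM in replicates 3 and 4, a difference of 0.73 (SE 0.0917). Ctgf, its relative, had 53.1, 82.6 and 128 CPM against 109, 131 and 168 CPM, a difference of 0.63 (SE 0.110), and its ranges overlapped, with NT high in both replicate sets. Within the list, Cnn1 and Anxa3 were also called, at 0.72 and 0.66. Actb, the major cytoplasmic actin, was ordered higher in all guide groups by 0.20 (SE 0.0452), from 2270 to 2569 CPM up to 2721 to 2916 CPM. Not every member followed: Krt8 had a difference of -0.16, Lgals1 -0.15, S100a11 -0.25 and Acta2 0.13, and none of these 4 was ordered.

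The list of immediate early genes and MAPK feedback had 3 called members of 28 (10.7%, against 1.17% of all genes), Fosl2, Cyr61 and Ctgf. In all, 8 were ordered higher (28.6%, against 3.78%), and the list median was 0.19. Without Mycn-gRNA2 replicate 1, 2 were called. Fosl2, an AP-1 transcription factor, had 1.62 to 3.13 CPM in replicates 1 and 2 and 4.71 to 7.74 CPM in replicates 3 and 4, a difference of 1.27 (SE 0.133). First-wave genes were mixed: Jun (0.51, SE 0.146) and Zfp36 (0.32) were ordered higher, as was Srf (0.35), while Fos (-0.06), Egr1 (0.17) and Dusp1 (-0.14) were not ordered. Members of this list and of the YAP list overlap in Cyr61 and Ctgf, so the 2 lists are not separate observations.

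Chaperones of the endoplasmic reticulum were ordered higher more often than any other list described here. Of 20 members of the unfolded protein response list, 16 were ordered higher (80%, against 3.78% of all genes) and none lower. All 20 fitted differences were positive, with a median of 0.36. Their summed level was 3008 to 3771 CPM in replicates 1 and 2 and 4103 to 4905 CPM in replicates 3 and 4. Hspa5, the main chaperone of the endoplasmic reticulum, had 359 and 407 CPM in NT replicates 1 and 2 and 606 and 543 CPM in replicates 3 and 4. In Mycn-gRNA2 it had 256 and 541 CPM, then 732 and 776 CPM. In Mycn-gRNA3 it had 365 and 481 CPM, then 593 and 583 CPM, and the fitted difference was 0.66 (SE 0.146).

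Herpud1, which helps remove misfolded proteins from the endoplasmic reticulum, had 8.03 to 12.4 CPM in replicates 1 and 2 and 15.1 to 29.6 CPM in replicates 3 and 4, a difference of 0.97 (SE 0.122). Manf, a secreted factor of that compartment, differed by 0.66 (SE 0.0991) and Xbp1, a transcription factor of the response, by 0.61 (SE 0.164). These 4 genes were the called members (20%, against 1.17% of all genes), but the count of 4 rested on Mycn-gRNA2 replicate 1. Without that library 1 member was called and 17 were ordered higher, with the ordering rule loosened by construction. The differences were then 0.87 for Herpud1, 0.57 for Manf, 0.52 for Hspa5 and 0.46 for Xbp1. Over all 12 libraries, Calr, Creld2 and Sdf2l1 were ordered higher by 0.50, 0.52 and 0.57, under the fold minimum. Edem1, Dnajb9, Dnajc3 and Atf6 were the members not ordered, at 0.03 to 0.07.

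The integrated stress response, a neighbouring pathway read out by ATF4 targets, had no called member of 30. This lies near the shares of all genes, of which 1.17% were called higher and 0.214% lower. Of its members, 2 were ordered higher (6.67%, against 3.78% of all genes), Atf4 at 0.25 and Slc38a2 at 0.10, and the median was 0.09. By guide group the list median was -0.17 in NT, 0.22 in Mycn-gRNA2 and 0.13 in Mycn-gRNA3. Asns and Psat1, amino acid enzymes under ATF4, had -0.11 each. Chac1 had a fitted difference of 0.93 (SE 0.339), but its libraries were not ordered: it lay at 7.10 and 3.06 CPM in Mycn-gRNA2 replicates 3 and 4.

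The largest fitted difference within any list, 2.59, was that of the cytosolic heat shock gene Hspa1a. Its copy Hspa1b had 2.04, and both differed most in NT. Their mean log2 CPM, 0.56 and 1.66, lay below the minimum of 2 used for the largest changes. Hspa1b, an inducible HSP70, had 0.903 and 0.628 CPM in NT replicates 1 and 2 and 15.8 and 13.4 CPM in NT replicates 3 and 4. In Mycn-gRNA3 it had 1.13 and 1.79 CPM, then 2.57 and 2.37 CPM. Its log2 difference was 3.58 in NT, 0.90 in Mycn-gRNA2 and 0.62 in Mycn-gRNA3. Hspa1a, its near-identical copy, had 0.587 and 0.314 CPM, then 7.56 and 5.63 CPM in NT, and at most 1.29 CPM with a Mycn guide. Both lie on chromosome 17, at positions 34956429 to 34959238 and 34969359 to 34972156 of mm10, and reads of the 2 copies may be split between them by the counting, so their separate values are uncertain.

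Other members of the heat shock list differed less and more evenly. Hspa8, the constitutive HSP70, had 3886 to 4747 CPM in replicates 1 and 2 and 5813 to 6723 CPM in replicates 3 and 4. Its difference of 0.50 (SE 0.0485) was 0.48 in NT, 0.49 in Mycn-gRNA2 and 0.55 in Mycn-gRNA3. Dnajb1, an HSP70 partner, differed by 0.56 and Hsph1 by 0.41. In all, 2 of 20 members were called (10%, against 1.17% of all genes). These were the near-identical copies Hspa1a and Hspa1b, which are not separate observations. Ordered higher were 8 members (40%, against 3.78%), and the list median was 0.21. Hsp90ab1 and Hspa4 lay at 0.03 and -0.01.

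**Figure D4:**
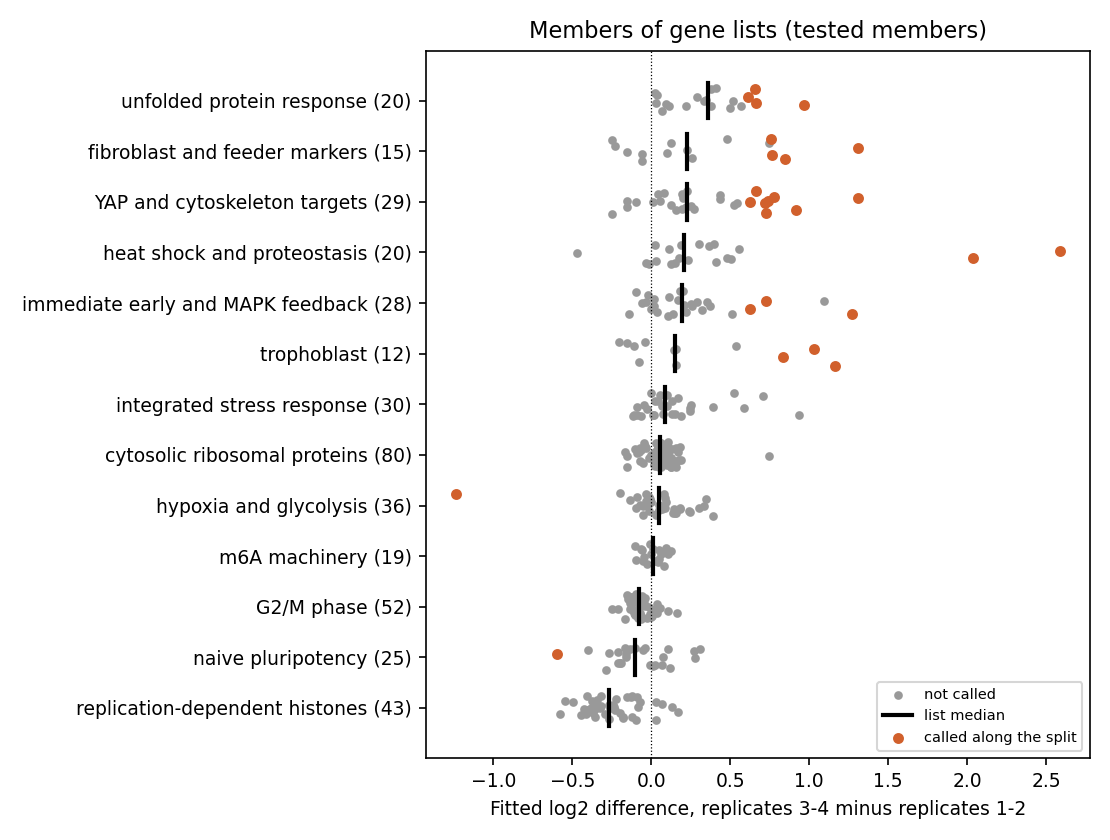
Fitted log2 differences between replicate sets (horizontal) of tested members of 13 gene lists (vertical, with the number tested). Orange points are called members, grey points the others, black bars list medians, and the dotted line the median of all genes tested. The unfolded protein response list has the highest median, 0.36, and replication-dependent histones the lowest, -0.27.

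Markers of other cell types also differed between the replicate sets. Of 15 fibroblast and feeder markers tested, 4 were called higher (26.7%, against 1.17% of all genes): Tagln, Col5a1 (0.85), Twist1 (0.76) and Vim (0.76). In all, 10 of the 15 fitted differences were positive, and the list median was 0.23, or 0.31 per ERCC read, against 0.22 and 0.27 for the YAP and cytoskeleton list, with which it shares Tagln and Acta2. Vim, encoding the filament protein vimentin, which embryonic stem cells also express, had 121 to 164 CPM in replicates 1 and 2 and 198 to 318 CPM in replicates 3 and 4. The summed level of the list, to which Fn1 contributes most, overlapped at 1736 to 2464 CPM and 1868 to 2572 CPM. Pdgfrb and Fn1 had differences of -0.25 and -0.06, and Col1a1 had 0.75 without being ordered. No member of the list was at 0 in all 12 libraries. The part of such cells in the differences was not tested.

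Of 12 trophoblast markers, 3 were called higher (25%, against 1.17% of all genes), all of them transcription factors. In all, 4 were ordered higher (33.3%, against 3.78%), and 7 fitted differences were positive and 5 negative. Gata3 had 1.61 to 4.02 CPM in replicates 1 and 2 and 2.43 to 6.82 CPM in replicates 3 and 4, overlapping across guide groups but ordered within each, with a difference of 1.03 (SE 0.173). Eomes differed by 0.83 (SE 0.132), from 4.04 to 5.54 CPM up to 6.83 to 11.4 CPM. Cdx2 differed by 1.17, at levels of 2.19 CPM or less. Krt8 and Tfap2c, also on the list, were at -0.16 and -0.08. The list's sum was 279 to 332 CPM and 314 to 348 CPM.

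Mesendoderm markers differed in opposite directions at low levels. T, encoding brachyury, was higher by 1.09 (SE 0.174) at 0.583 to 1.95 CPM, and Evx1 lower by 1.20 on the log2 scale at 1.94 CPM or less. With Eomes, which is also on the trophoblast list, 2 of 11 members were called higher and 1 lower. The share called higher was 18.2%, against 1.17% of all genes. Of 10 neuroectoderm markers only Nes was called. Of 20 primitive endoderm markers only Hnf4a was called, lower at 1.17 CPM or less. Cdh2, encoding N-cadherin, was the called member of 19 formative and primed epiblast genes, with a difference of 0.67 (SE 0.153) that was 1.18 in Mycn-gRNA2 and 0.24 in Mycn-gRNA3.

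Naive pluripotency genes mostly differed little in size and in both directions, but were ordered more often than all genes. Of 25 members, 4 were ordered lower, against 1.9% of all genes, and 3 ordered higher (12%, against 3.78%). The list median was -0.10. Nr0b1, which encodes the nuclear receptor DAX1, was the called one, where 0.214% of all genes were called lower. It had 194 and 165 CPM in NT replicates 1 and 2 and 156 and 155 CPM in replicates 3 and 4, then 241 and 128 against 87.4 and 101 CPM in Mycn-gRNA2, and 170 and 154 against 104 and 109 CPM in Mycn-gRNA3. Its difference of -0.59 (SE 0.144) was -0.41 without Mycn-gRNA2 replicate 1, so it passed the fold minimum only with that library. Nanog was ordered lower by -0.16, Tcl1 by -0.40 and Fgf4 by -0.21. Dnmt3l (0.27), Dppa4 (0.12) and Spp1 (0.28) were ordered higher. Pou5f1, with 0.03, and Sox2, with 0.07, were not ordered.

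Few genes were lower in replicates 3 and 4, and only 10 qualified for the set of largest differences. Ndrg1, on chromosome 15 at positions 66929318 to 66969641 of mm10, is induced by hypoxia and metabolic stress. It had 11.3, 18.6 and 24.0 CPM as lowest, median and highest values in replicates 1 and 2. In replicates 3 and 4 it had 5.47, 8.10 and 9.46 CPM, so the ranges did not overlap and the difference was -1.23 (SE 0.161). It was the only called member of the hypoxia and glycolysis list of 36, whose median was 0.05. Over all genes, 0.214% were called lower. Slc52a3, a riboflavin transporter, differed by -1.17 (SE 0.180). Ucp2, a carrier of the inner mitochondrial membrane, had 42.8 to 63.2 CPM in replicates 1 and 2 and 32.5 to 42.0 CPM in replicates 3 and 4, a difference of -0.69 (SE 0.0864).

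The remaining large differences on the lower side were those of Ebf1 (-1.02), Emp2 (-0.92), Lgals3 (-0.79), Arl14epl (-0.73), Map2k6 (-0.61) and Nkx6-3 (-0.59). Ebf1, a transcription factor of B cells, lay at 21.9 CPM in Mycn-gRNA2 replicate 1 where the next library had 11.0 CPM, and without that library its difference was -0.64. Emp2, a membrane protein, differed by -1.34 in Mycn-gRNA3 and by -0.33 in NT. In NT only replicate 1, at 19.4 CPM, lay well above replicates 3 and 4, at 12.6 and 12.5 CPM.

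Interferon and RNA-sensing genes differed in both directions. Rsad2, an antiviral enzyme, had 1.65 to 3.68 CPM in replicates 1 and 2 and 0.264 to 1.02 CPM in replicates 3 and 4, a difference of -1.91 (SE 0.241). Tapbp, which loads peptides onto MHC class I, was higher by 0.61 (SE 0.0908) and was the other called member of 22. Over all genes, 1.17% were called higher and 0.214% lower. Without Mycn-gRNA2 replicate 1, Tapbp was no longer called. The median of the list was 0.03. Among p53 targets, 1 of 22 was called higher (4.55%, against 1.17% of all genes), Perp, a membrane protein of cell junctions. Perp had 28.7 to 43.7 CPM against 43.6 to 62.5 CPM and a difference of 0.66 (SE 0.0830). Cdkn1a and Mdm2, classical p53 targets, were at 0.27 and 0.06 and were not ordered. Of 26 imprinted genes, Phlda2 was called higher (3.85%, against 1.17% of all genes), with a difference of 1.00 (SE 0.144).

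Growth machinery showed no called member, but only 1.17% of all genes were called higher and 0.214% lower. In lists of this size, 0 called lies near those shares. Over all genes, 3.78% were ordered higher and 1.9% ordered lower. Cytosolic ribosomal proteins had 0 called and 0 ordered of 80, with a median of 0.06, and nuclear oxidative phosphorylation genes had 0 of 61 ordered, with a median of 0.04. Ribosome biogenesis (56 genes), MYC targets (48) and cholesterol synthesis (25) had 0 called, with medians of 0.05, 0.07 and -0.03. A call requires the same direction in every guide group, so 0 called does not mean that a list was unchanged. Medians in NT, Mycn-gRNA2 and Mycn-gRNA3 were -0.07, 0.17 and 0.08 for ribosomal proteins and -0.09, 0.17 and 0.09 for oxidative phosphorylation. They were -0.03, 0.02 and 0.13 for ribosome biogenesis, -0.09, 0.14 and 0.13 for MYC targets, and -0.24, 0.13 and 0.06 for cholesterol synthesis. Lysosome and autophagy genes had 0 of 43 called, and 33 of the 43 fitted differences were negative, with a median of -0.08. Of 52 G2/M genes, 4 were ordered lower, against 1.9% of all genes, among them Bub1 and Birc5. Only 1 was ordered higher (1.92%, against 3.78%), and the list median was -0.08. Replication-dependent histones, whose mRNAs lack a polyA tail, had a median of -0.27 and 0 of 43 ordered. The m6A machinery of 19 genes had a median of 0.01. Its one ordered member was the demethylase Fto, at -0.11, and Alkbh5, whose reads may include those of the fusion, differed by -0.00075 between replicate sets.

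Genes called higher were richer in GC than the rest. Their transcripts had a median GC content of 55.06%, those of genes called lower 52.8% and those of all genes tested 50%. Across 10551 genes the difference between replicate sets had r = 0.29 with GC content, as a description over genes. This relation was not common to the guide groups: it was -0.0518 in NT, 0.49 in Mycn-gRNA2 and 0.0917 in Mycn-gRNA3, and 0.234 in Mycn-gRNA2 without replicate 1. Exon length had r = -0.0415. The median difference per chromosome lay between -0.0295 and 0.0330. The part of GC content in the differences was not tested.

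With levels per ERCC read in place of levels relative to the transcriptome, 163 genes were called higher and 15 lower in replicates 3 and 4. The ratio of endogenous to ERCC reads was 61.3 to 93.2 in replicates 1 and 2 and 63.4 to 95.6 in replicates 3 and 4. The mean log2 difference over guide groups was 0.05, made of -0.05 in NT, 0.24 in Mycn-gRNA2 and -0.05 in Mycn-gRNA3. The median gene differed by 0.04 per ERCC read against -0.0042 relative to the transcriptome. In these bulk samples, fewer cells of a type and less RNA per cell cannot be told apart.

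Whether the difference between replicate sets varied with the guide was tested with edgeR's quasi-likelihood F test on the interaction. The split was chosen on the likeness of libraries within a set, and their spread is the error term of this test, so its p-values are not independent of that choice and may be too small. Of 14497 genes, 6 (0.0414%) passed an adjusted p of 0.05, 792 had an unadjusted p under 0.05, and DESeq2 called 40. The count was 100 with ERCC library sizes and 68 with no filter on low counts. Cdkn1c, on chromosome 7 at positions 143458339 to 143461050 of mm10, encodes an imprinted inhibitor of cyclin-dependent kinases. It had 162 and 178 CPM in NT replicates 1 and 2 and 62.3 and 60.8 CPM in NT replicates 3 and 4. With Mycn-gRNA2 it had 78.5 and 93.2 CPM, then 95.0 and 111 CPM, and with Mycn-gRNA3 132 and 136 CPM, then 183 and 151 CPM. It was lower in replicates 3 and 4 in NT and higher there with both guides (edgeR adjusted p = 0.00346).

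Dnmt3b, on chromosome 2 at positions 153649449 to 153687730 of mm10, encodes a de novo DNA methyltransferase of the formative epiblast and followed the same order. In NT it had 115 and 136 CPM, then 70.5 and 72.8 CPM. It had 134 and 151 CPM, then 204 and 224 CPM with Mycn-gRNA2, and 158 and 184 CPM, then 272 and 243 CPM with Mycn-gRNA3 (edgeR adjusted p = 0.0105). The guide groups lay near each other in replicates 1 and 2 and well apart in replicates 3 and 4.

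A different order appeared in Lrrc8c, Ddit4l and Hs6st2, where the 2 Mycn guides changed in opposite directions. Lrrc8c, a subunit of volume-regulated anion channels, had 9.78 and 9.30 CPM, then 21.6 and 21.5 CPM with Mycn-gRNA2. With Mycn-gRNA3 it had 20.4 and 19.5 CPM, then 12.0 and 10.6 CPM, and in NT 7.18 and 7.04 CPM, then 8.91 and 10.8 CPM (edgeR adjusted p = 0.00346). Ddit4l, an mTOR inhibitor related to REDD1, went from 5.52 and 4.77 to 11.2 and 10.6 CPM with Mycn-gRNA2 and from 9.00 and 8.82 to 4.81 and 4.25 CPM with Mycn-gRNA3 (edgeR adjusted p = 0.0136). Hs6st2, a heparan sulfate sulfotransferase, went from 3.30 and 3.99 to 8.94 and 9.82 CPM and from 7.79 and 7.33 to 4.67 and 4.91 CPM (edgeR adjusted p = 0.0197). In these 3 genes the level with Mycn-gRNA2 in one replicate set was near that with Mycn-gRNA3 in the other. Hspa1b was the sixth gene (edgeR adjusted p = 0.0464).

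**Figure D5:**
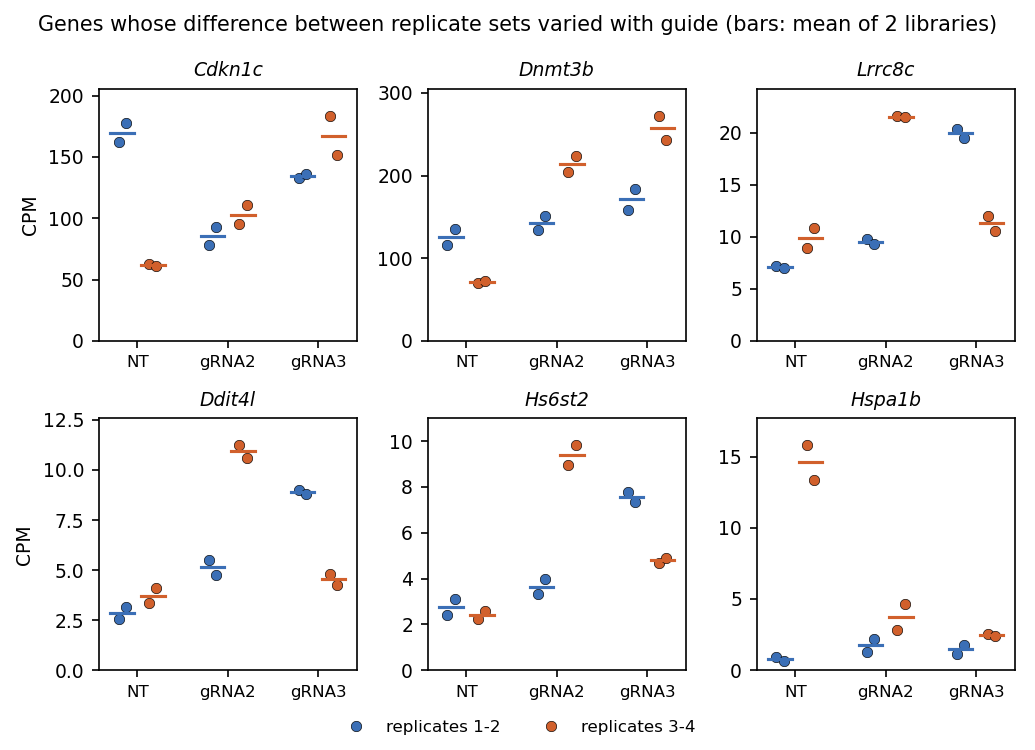
CPM (vertical, from 0) of the 6 genes with an interaction of guide group and replicate set, by guide group (horizontal), with replicates 1 and 2 in blue and replicates 3 and 4 in orange. Points are libraries and bars the mean of 2. Cdkn1c and Dnmt3b are lower in replicates 3 and 4 in NT only, and Lrrc8c, Ddit4l and Hs6st2 change in opposite directions with the 2 Mycn guides.

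The number of such genes depended heavily on single libraries. It was 84 without Mycn-gRNA2 replicate 1, 3687 without Mycn-gRNA2 replicate 2 and 1 without NT replicate 3 or NT replicate 4. It was 3 without Mycn-gRNA2 replicate 3 or without Mycn-gRNA3 replicate 1, 2 or 4, and 2 without Mycn-gRNA3 replicate 3. Where replicate 2 was left out, the library that stood apart was alone in its cell of the design and was assumed to vary like the others. Hspa1b lost its call without any 1 of the 4 NT libraries. Cdkn1c had an adjusted p of 0.0514 without NT replicate 3 and 0.0593 without NT replicate 4.

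The comparison of both Mycn guides with NT is balanced over the replicate sets. A term for a split chosen on the same values lowers the residual spread by construction, so the p-values of the fit with that term may be too small. With the replicate set as a term, 2334 genes (16.1%) were higher and 2105 (14.5%) lower with the guides at an adjusted p under 0.05 (edgeR), 4439 in all. Without the term the total was 4034, of which 4016 were in both, so the term added 423 genes and removed 18. The typical biological coefficient of variation was 0.119 without the term and 0.105 with it. With ERCC library sizes, 8385 genes were higher and 150 lower, so the near-even split of directions held only relative to the transcriptome. Gbp2, an interferon-inducible GTPase, was among the genes added, with 0.361 and 0.359 CPM, then 1.11 and 1.06 CPM in NT, and 0.525 and 0.984 CPM, then 4.89 and 4.10 CPM with Mycn-gRNA3. Adgra3, Nab1 and Mageb4 were also added, and all 4 were called along the split. Without Mycn-gRNA2 replicate 1, 3515 genes were higher and 3253 lower. Without NT replicate 3 or 4, 1354 and 1378 were lower.

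Of the 169 genes called higher along the split, 71 (42%) were also called in the guide comparison, 47 higher and 24 lower with the guides. Of the 31 called lower, 11 (35.5%) were, 1 higher and 10 lower. Over all genes tested the share was 30.6%. The higher level of Mycn, the transcript the guides are named for, was present in both replicate sets. Mycn had 141 and 146 CPM in NT replicates 1 and 2, 140 and 136 CPM in replicates 3 and 4, 205 to 262 CPM with Mycn-gRNA2 and 258 to 292 CPM with Mycn-gRNA3. The log2 difference of the guides from NT was 0.76 in replicates 1 and 2 (edgeR adjusted p = 0.00034) and 0.95 in replicates 3 and 4 (edgeR adjusted p = 4.04e-05). The difference between these was 0.18 (SE 0.108, edgeR adjusted p = 0.716). Mycn itself differed by 0.06 between replicate sets, and Myc, its relative, by 0.28 (SE 0.0866), with 0.60 in Mycn-gRNA3, 0.14 in NT and 0.09 in Mycn-gRNA2.

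Taken separately, the replicate sets gave unequal numbers of genes for the guides against NT. Within replicates 1 and 2, 1190 genes (8.21%) were called by edgeR, 802 higher and 388 lower. Within replicates 3 and 4, 3597 (24.8%) were called, 1873 higher and 1724 lower, and 996 genes were called in both replicate sets, 995 of them with the same sign. These unequal counts do not show that the guides' effect differed. Tested directly as 1 contrast, it differed between replicate sets in 3 genes, Cdkn1c (edgeR adjusted p = 0.00133), Dnmt3b (0.0038) and Hspa1b (0.0243), with 1019 genes at an unadjusted p under 0.05. These p-values carry the same limit as those of the interaction. With ERCC library sizes the counts were 2433 within replicates 1 and 2 and 7193 within replicates 3 and 4. The within-set counts moved with single libraries too. In replicates 1 and 2 they were 2477 without Mycn-gRNA2 replicate 1 and 4376 without Mycn-gRNA2 replicate 2, and 224, 253 and 644 without NT replicate 1, NT replicate 2 and Mycn-gRNA3 replicate 2. In replicates 3 and 4 they were 1126 and 1248 without NT replicate 3 or 4, 2253 without Mycn-gRNA2 replicate 4 and 1938 without Mycn-gRNA3 replicate 3. They were 6334 and 6339 without Mycn-gRNA2 replicate 1 or 2, libraries of the other set, which enter through the shared estimate of spread.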

How the data were processed

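Raw read counts per gene for 24421 genes and 92 ERCC RNAs were deposited by the authors. Per the submitters' processing notes, Trim Galore 0.4.0, featureCounts of Subread 1.5.0 and edgeR 3.32.1 were used on build mm10. The strand setting, aligner and annotation release are not stated there, so overlapping antisense genes cannot be told apart. Groups and replicate numbers came from sample titles. Counts were fitted in R 4.3.3 with edgeR 4.0.16 (robust quasi-likelihood, filterByExpr, TMM over endogenous genes, 14497 genes) with guide group and replicate set (replicates 1 and 2, or 3 and 4) as terms; p-values were Benjamini-Hochberg adjusted over all genes. Alternatives used DESeq2 1.42.0, ERCC library sizes, no filter, other fold minima, a replicate block, and each library left out. Named genes were the 12 largest called differences each way at mean log2 CPM 2 or above, up to 4 called members per gene list, up to 8 interaction genes, and Mycn, Myc, Alkbh5 and 4 genes added by the replicate set term. The split, the 37 gene lists (36 with tested members) and the rules were chosen with earlier results of these data known. Other list members were named after their values were seen. Fitted differences are log2 fold changes. GC content came from the longest GENCODE transcript per symbol. Replicate numbers were not taken as pairs: deviations of same-numbered libraries correlated at -0.0412 to 0.634. The procedures were tested on simulated counts. The deposited log table was not used. Reads carry no molecular identifiers.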

Additional observations from a re-analysis of the deposited data

Results flagged for a closer look

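In 180 groups of 4 libraries (a named gene's CPM or the ratio of endogenous to ERCC reads), 4 had a library whose gap to the next, divided by the range, passed Dixon's 95% limit. For 4 values from a single normal population, that limit flags about 1 in 20 groups. Most genes here were picked for a gap between replicate sets, which lies mid-range and is not flagged. The count therefore cannot be set against that rate. Ebf1 in Mycn-gRNA2 replicate 1 had a ratio of 0.954, with 21.9 CPM in that library. Emp2 in NT replicate 1 had 0.925, with 19.4 CPM. Evx1 in NT replicate 1 had 0.85, with 1.94 CPM. Myc in Mycn-gRNA2 replicate 4 had 0.871, with 137 CPM. In 6 genes the difference between replicate sets varied with the guide group by edgeR's interaction test, with adjusted p = 0.00346 for Cdkn1c and for Lrrc8c, 0.0105 for Dnmt3b, 0.0136 for Ddit4l, 0.0197 for Hs6st2 and 0.0464 for Hspa1b.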

How the results depend on the processing

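For 47 genes named along the split, 743 of 752 alternative values stayed within the spread between replicates, 9 moved (Hspa1a, Hspa1b and T) and 0 reversed. Most alternatives left out 1 of 12 libraries, which shifts a fitted difference by less than that spread nearly by construction. The count is therefore no measure of stability. Nr0b1, which lost its call without Mycn-gRNA2 replicate 1, was not counted as moved. The higher calls along the split numbered 66 at a fold of at least 2 and 548 with no fold minimum; the lower calls numbered 9 and 275, 15 with ERCC library sizes and 55 with no filter on low counts. Leaving out 1 library gave 160 to 223 higher and 35 to 49 lower calls. Fewer libraries loosen the ordering rule by construction. DESeq2 gave 171 higher calls, 169 of them shared. Interaction calls were 100 with ERCC library sizes, 68 with no filter, 40 with DESeq2 and 1 to 3687 with 1 library left out. Guide calls with the replicate set term were 8385 higher and 150 lower with ERCC library sizes, and 1685 to 3515 higher and 1354 to 3253 lower with 1 library left out. Within replicates 1 and 2, calls were 2433 with ERCC library sizes and 224 to 4376 with 1 library left out; within replicates 3 and 4, 7193 and 1126 to 6339. The log2 difference in endogenous reads per ERCC read was -0.014 to 0.111 with 1 library left out. The log2 difference of Alkbh5 between guides and NT was -0.0039 (edgeR adjusted p = 0.966) and became 0.39 with ERCC library sizes. Those sizes also moved Mycn from 0.86 to 1.25 and Myc from 0.06 to 0.44. The replicate block gave 171 higher calls along the split and 7 interaction calls; 9 of 12 libraries correlated best with their own number, a hint from the data and not the design. Where not stated otherwise, the cause was not tested.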
